A study of Bos taurus with 16 samples.

Results

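The genes described here encode the proteins that join neighbouring cells: claudins, connexins, cadherins with a CDH symbol, desmosomal cadherins with their plaque proteins, tight junction scaffolds of the TJP family with occludin, and the adhesion molecules JAM2, JAM3, F11R and EPCAM. They were chosen by name from the array design, which gave 173 of the 43653 probes, and these stand for 81 genes by their current symbols. Of them, 121 probes of 62 genes were tested, among 33182 tested probes in all, because their spots stood well above background in 4 or more of the 16 hybridisations. The tested genes were 15 of 20 claudins, 12 of 18 connexins, 19 of 23 cadherins, 8 of 12 desmosomal genes, 4 of 4 genes of the group of OCLN and the TJP scaffolds, and 4 of 4 genes of the group of JAMs and EPCAM. Below, a gene is represented by its tested probe with the highest mean level, and other probes are given where they differ.

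The tissue was endometrium, the lining of the uterus, taken as several forceps biopsies of the uterine horns of 4 fertile cows at each visit. Each cow was sampled 4 times after parturition, on days 9 to 10, 29 to 30, 49 to 51 and 99 to 100, called here day 10, day 30, day 50 and day 100, with 1 one-colour array per cow and day. No cow was treated, ages are not given in the sources used here, and a day is always compared with an earlier day in the same cows. A level is the log2 processed signal of a probe relative to percentile 75 of its array, and a difference is the log2 level at the later day minus that at the earlier day, with its standard error (SE).

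Median processed signals lay between 51.1 and 154 per array, and 61.2% to 77.0% of probes were well above background. The lowest median signals were those of cow 3 (51.1) and cow 2 (54.8) at day 100. Precision is set by the small number of arrays. Markers of endometrial cell types were present: 10 of 10 stromal fibroblast genes were above background on all 16 arrays, and 12 of the 13 measured epithelial genes likewise. Biopsies differed in the levels of cell type markers. The epithelial marker level, a mean over those 13 genes with no junction gene among them and set relative to the mean of all arrays, spanned -2.79 to 1.36 (day 10), -2.37 to 0.61 (day 30), 0.58 to 1.17 (day 50) and -3.70 to 2.68 (day 100). The lowest of all was cow 2 at day 100 and the highest was cow 1 at day 100. The smooth muscle marker level ran from -1.58 to 1.74, -0.35 to 1.92, -1.65 to 1.56 and -3.67 to 2.20 on the same days, and its lowest value was that of cow 1 at day 100.

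Tight junctions seal the space between epithelial cells, and claudins and occludin are their strands while TJP proteins hold those strands to the actin cytoskeleton. Cadherins tie cells together at adherens junctions, and desmosomes do the same through desmogleins and desmocollins, which are linked by plakophilins and desmoplakin to keratin filaments. Connexins assemble into gap junctions, channels that let ions and small molecules pass between cells. In the uterus, GJA1 is the main gap junction protein of muscle and stroma, and the luminal and glandular epithelium carries claudins, CDH1 and EPCAM.

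Few junction genes differed between days beyond the spread left once day and cow were fitted. The comparison of day 50 with day 10 called 1 of 121 junction probes, where 1.65% of all tested probes were called (limma, adjusted p under 0.05). Day 100 against day 10 called 4 junction probes of 3 genes, all lower at day 100, which is 3.31% of the junction probes against 4.6% of all probes. Day 30 against day 10 called 0 junction probes, against 0.419% of all, and 14 junction probes (11.6%) had an unadjusted p under 0.05, against 14.0% of all. In the 3 comparisons among day 30, day 50 and day 100 limma called 0 probes of any gene (0%). At an unadjusted p under 0.05 there were 15 junction probes (12.4%, against 9.32% of all) for day 50 against day 30 and 17 (14.0%, against 12.8%) for day 100 against day 30. For day 100 against day 50 there were 5 (4.13%, against 3.14%). The F test over all days called 0 junction probes, against 1.03% of all probes. At an unadjusted p under 0.05 it had 28 junction probes (23.1%), against 18.9% of all. In the values used here, these shares of called junction probes are near or below those of all probes. Under some other settings they are above them. At day 100 against day 10, another background correction (normexp) called 14 of 121 junction probes, against 1982 of 33182 in all. With the epithelial marker level in the fit it was 18 of 121, against 2600 in all. Quantile scaling was not such a setting: it gave 5 of 121, against 1469 of 33182 in all, a share near that of all probes.

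Relative to day 10, the junction genes lay more often above zero at day 50 and at day 100 than all tested probes did, a description to which no test belongs. At day 50 against day 10 the median difference of the 62 genes was 0.51, and 42 of them (67.7%) were above zero, against a median of -0.03 and 47.6% of all tested probes. At day 100 against day 10 the median was 0.42 with 37 of 62 genes above zero, against -0.07 for all probes. Without the day 100 array of cow 1 that median was 0.05 (33 of 62 genes), and without cow 1 it was 0.13. These medians take 1 probe per gene, that with the highest level, while those of all probes make no such choice. Over the 121 junction probes the medians were 0.27 at day 50 and 0.08 at day 100 against day 10. Over the 58 junction probes above background on all 16 arrays they were 0.19 and -0.04, against -0.04 and -0.03 for all probes so filtered. At day 100 against day 50 the median was -0.24, with 20 of 62 genes (32.3%) above zero, against -0.05 and 45.2% for all probes. With normexp that median was 0.21, against 0.23 for all probes. By group, the day 50 against day 10 medians were 1.33 for desmosomal genes (7 of 8 above zero), 0.88 for OCLN and the TJP scaffolds (2 of 4), 0.76 for claudins (12 of 15), 0.54 for JAMs and EPCAM (3 of 4), 0.27 for cadherins (13 of 19) and -0.16 for connexins (5 of 12). With another background correction (normexp) the median of the junction genes at day 50 against day 10 was 0.23 with 37 genes above zero, and it stood 0.25 above that of all probes, where it stood 0.54 above it in the values used here. Likewise the median of all probes moved to 0.25 at day 100 against day 10, and the junction genes stood 0.37 above it, where they stood 0.49 above it before. At day 30 against day 10 the median of the junction genes was -0.04, and it was 0.14 with normexp and 0.04 with quantile scaling. The medians of all probes were -0.01, 0.11 and 0.06 in the same order. The mean epithelial marker level was 0.12 at day 100, 0.87 at day 50 and -0.38 at day 10. With that level in the fit, the median of the 62 genes was 0.27 at day 50 and 0.14 at day 100 against day 10. The day 50 medians were then 0.50 for desmosomal genes, 0.42 for OCLN and the TJP scaffolds, 0.11 for JAMs and EPCAM, 0.81 for claudins, 0.32 for cadherins and -0.09 for connexins. In bulk tissue of this kind, fewer cells of a type and less RNA per cell cannot be told apart.

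**Figure D1:**
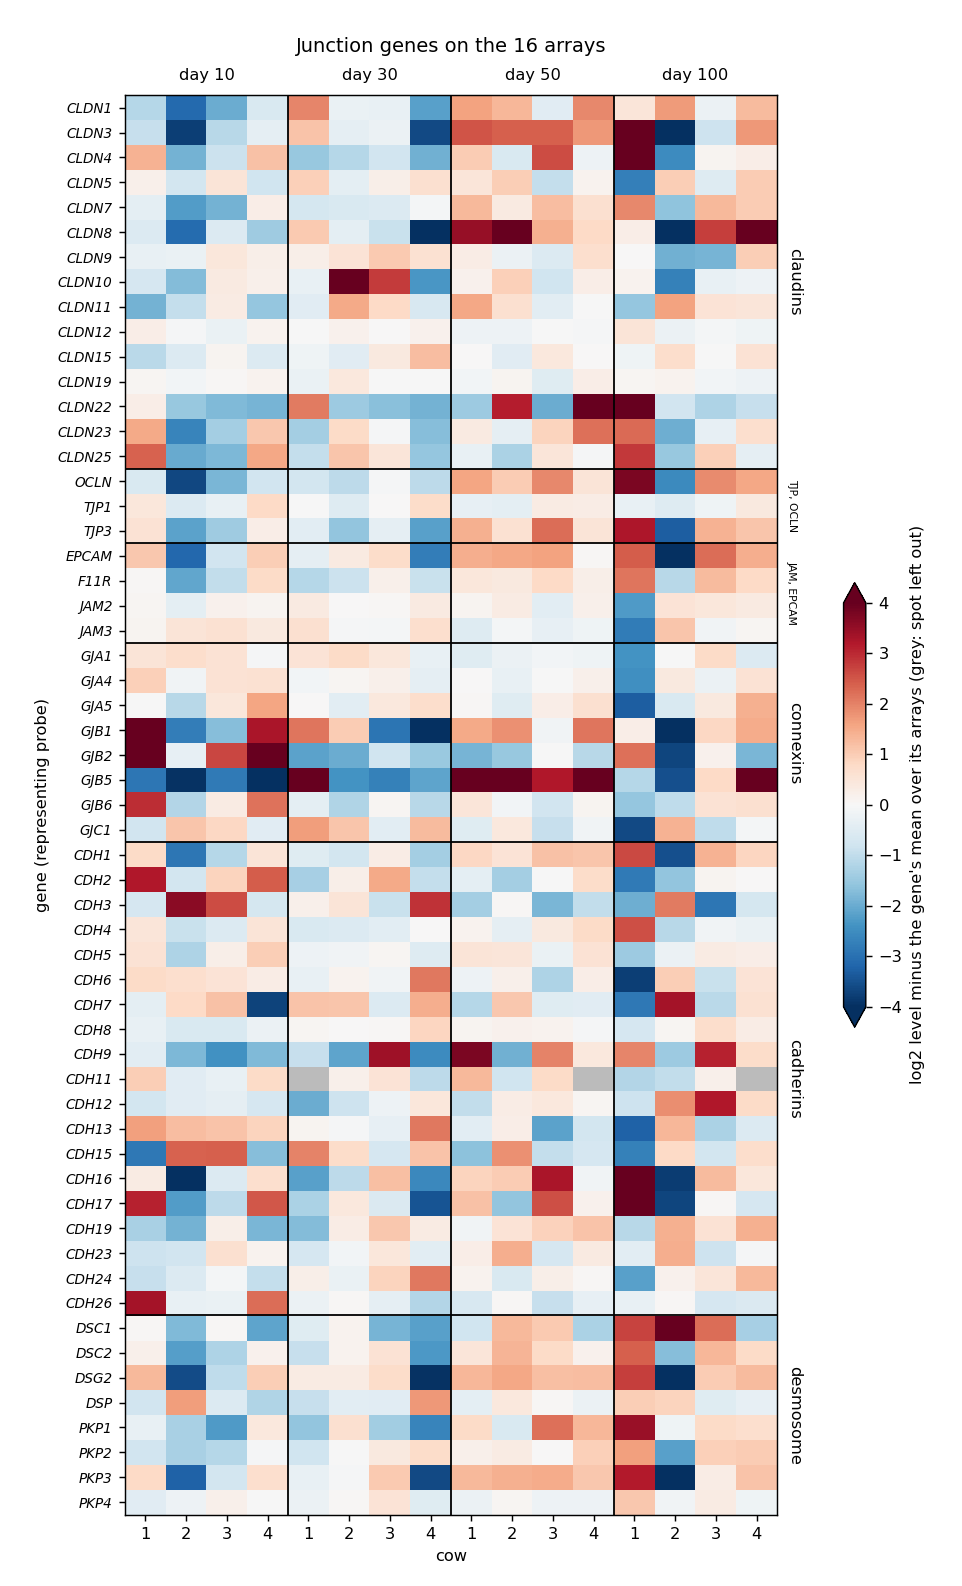
Level of 57 of the 62 tested junction genes (rows, by group) on the 16 arrays (columns, by nominal day and then cow), as log2 level minus the gene's mean over its arrays, with red above and blue below that mean. GJB5 is red in all 4 cows at day 50, GJB2 is red in cows 1, 3 and 4 at day 10, and many epithelial genes are deep blue in cow 2 and red in cow 1 at day 100.

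Among the connexins, GJB5 was the gene called at day 50. GJB5 is a beta connexin best known from skin and other stratified epithelia. Its 2 probes are shown because the only day 50 call rests on the first of them and because they match different parts of the gene. They lie on the minus strand of chromosome 3 of the bovine build Btau_3.1, at chr3:118191847-118191906 and chr3:118192148-118192207, and neither shares a run of more than 9 bases with a probe of another junction gene.
GJB5 first probe: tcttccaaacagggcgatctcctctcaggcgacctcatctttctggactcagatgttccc
GJB5 second probe: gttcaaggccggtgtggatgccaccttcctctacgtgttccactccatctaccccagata

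On the first probe the GJB5 levels of cows 1 to 4 were -6.85, -7.91, -6.80 and -8.56 at day 10, not well above background in any cow. They were 0.29, -6.33, -6.67 and -6.07 at day 30, then 0.90, 0.29, -0.74 and 0.02 at day 50, and -5.10, -7.48, -3.15 and 0.82 at day 100. All 4 cows were thus high at day 50, only cow 1 at day 30 and only cow 4 at day 100, and the day 50 and day 10 values did not overlap. GJB5 rose at day 50 by 7.65 ± 1.61 (SE, 4 of 4 cows, limma adjusted p = 0.0426). Since day 10 gave only a bound, the fold is at least 137-fold higher at day 50 than at day 10, from the lowest signal counted as well above background on each day 10 array, with means of 0.12 ± 0.68 at day 50 and -7.53 ± 0.86 at day 10 (SD, n = 4 each). With normexp the GJB5 difference was 3.94 on the log2 scale (adjusted p = 0.0385), a smaller fold than that bound. The bound thus holds only for the values used here.

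The second GJB5 probe had the same order of cows at day 50 and day 100. It stood at -7.01, -7.42, -7.26 and -6.43 at day 10, at -1.23, -6.69, -6.73 and -7.04 at day 30, at -0.58, -0.90, -2.09 and -1.21 at day 50, and at -6.55, -8.16, -4.72 and -0.41 at day 100. Its day 50 against day 10 difference was 5.83 ± 1.44 (adjusted p = 0.0680), at least 43.2-fold. With normexp that difference was 2.70 (adjusted p = 0.0406), again a smaller fold than the bound. The call on the first probe was lost without cow 1, 2, 3 or 4 (adjusted p = 0.139, 0.137, 0.187 and 0.0787), while the difference stayed between 7.33 and 8.18, and it was 7.71 with an adjusted p of 0.0527 when the epithelial marker level entered the fit. Without cows 1, 2, 3 and 4 the day 50 calls over all probes fell from 548 to 23, 132, 21 and 149. The squamous epithelium marker level (7 of 10 genes measured) was -0.06 to 0.57 at day 50 and -0.95 to -0.02 at day 10, with 1 of its 7 genes called higher, and its part in the GJB5 difference was not tested.

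GJB2, connexin 26, which in rodents is induced in uterine epithelium around implantation, showed the opposite order of days. Its levels in cows 1 to 4 were 1.68, -4.72, -1.72 and 1.22 at day 10, -6.53, -6.38, -5.18 and -5.86 at day 30, -6.26, -5.90, -4.41 and -5.49 at day 50, and -2.18, -8.06, -4.22 and -6.20 at day 100. Each cow was lower at each later day than at day 10, and at day 30 the values did not overlap those of day 10. The differences from day 10 were -5.11 ± 1.13 at day 30, -4.63 ± 1.13 at day 50 and -4.29 ± 1.13 at day 100. Their adjusted p of 0.0792, 0.0661 and 0.0550 all missed the threshold. With normexp the GJB2 differences were -3.11, -3.17 and -2.17. With the epithelial marker level in the fit the day 100 difference was -4.71 with an adjusted p of 0.00994, and with the smooth muscle level it was -5.09 with an adjusted p of 0.00624. The leukocyte marker level (9 of 10 genes measured, all 9 above background on every array) stood at 3.08, 0.55, 0.61 and 3.61 in cows 1 to 4 at day 10 and between -1.47 and 0.76 on later days. It was high in the same 2 cows as GJB2 at day 10, and its part in the GJB2 difference was not tested.

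GJB6, connexin 30, whose probe lies near that of GJB2 on chromosome 12 (36278289 and 36422826), was also highest at day 10 in cow 1, and was named after its values were seen. Its levels were 0.08, -4.05, -2.54 and -0.69 at day 10 in cows 1 to 4 and between -4.41 and -2.23 on later days, and no difference passed the test (lowest adjusted p over the days 0.246, for day 100 against day 10).

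GJA1, connexin 43, was lower at day 100 on 1 of its 2 probes. On the representing probe it was at 5.72, 5.91, 5.81 and 5.18 at day 10, at 5.78, 5.97, 5.67 and 4.91 at day 30, at 4.73, 4.98, 5.12 and 5.04 at day 50, and at 2.82, 5.20, 5.99 and 4.66 at day 100. The day 100 values spread widely, with cow 1 far below the rest, and the difference from day 10 was -0.99 ± 0.46 (adjusted p = 0.201). On the other probe GJA1 fell at day 100 by 2.40 ± 0.60 (4 of 4 cows, adjusted p = 0.0453), with levels of -2.93, -0.54, -1.12 and -1.02 at day 100 and 0.68, 1.11, 1.55 and 0.65 at day 10 that did not overlap. The 2 GJA1 probes start at 31059021 and 31059789 on chromosome 9, and why they differ was not tested.

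No other tested connexin passed the test between days. GJB1 ranged from -6.76 to 2.93 over the 16 arrays, and its day 10 levels were 2.93, -3.89, -2.82 and 2.15, with cows 1 and 4 high. GJA4, connexin 37 of the vessel wall, was at 1.64, 1.34, 1.62 and 1.83 at day 50 and at -0.81, 2.02, 1.41 and 2.20 at day 100, so that cow 1 alone was low at day 100. Its day 50 against day 10 difference was -0.52 ± 0.52 (adjusted p = 0.634). GJA5 and GJC1 had differences between -1.72 and 0.72 over the 6 pairs of days.

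**Figure D2:**
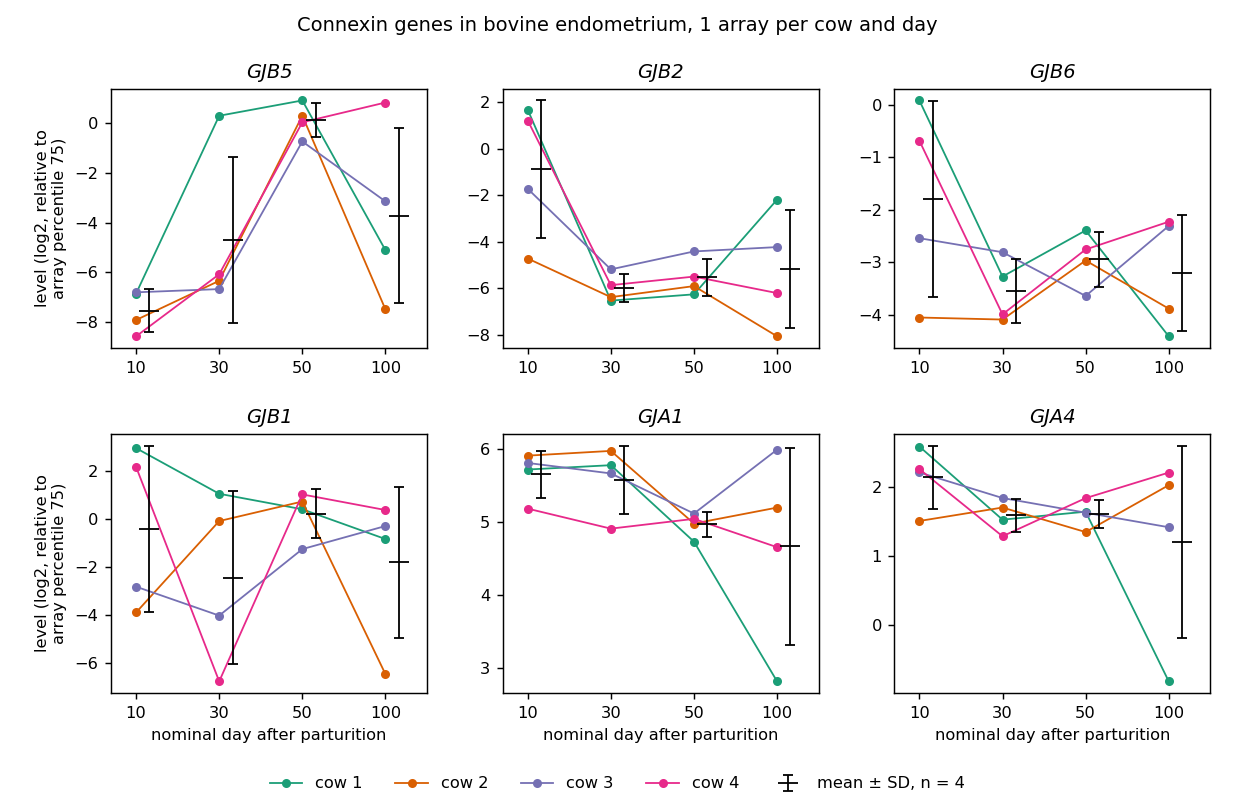
Level of 6 connexin genes (log2, relative to percentile 75 of the array) by nominal day after parturition, with 1 line per cow and the mean ± SD of 4 cows beside each day. GJB5 has its highest mean and smallest spread at day 50, GJB2, GJB6 and GJB1 are highest at day 10 in cows 1 and 4, and GJA1 and GJA4 are lowest in cow 1 at day 100.

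Among tight junction genes, OCLN and CLDN1 had the largest differences relative to their errors, and none passed the test in the values used here. Occludin, a membrane protein of tight junction strands, was at -2.37, -5.42, -3.59 and -2.52 in cows 1 to 4 at day 10. It was at -2.50, -2.81, -1.81 and -2.81 at day 30, at -0.21, -0.76, 0.17 and -1.26 at day 50, and at 1.99, -4.31, 0.12 and -0.22 at day 100. Each cow was higher at day 50 than at day 10 with no overlap, and cow 2 at day 100 was low again. Relative to day 10, OCLN differed by 2.96 ± 0.81 on day 50 (adjusted p = 0.0876). On day 100 it differed by 2.87 ± 0.81 (adjusted p = 0.0631). For day 100 the adjusted p was 0.0221 without cow 2, with a difference of 3.45, and 0.0110 with the epithelial marker level in the fit, with a difference of 2.53. Without the other cows it was 0.163 to 0.291. With normexp OCLN passed the test at day 50 (2.00, adjusted p = 0.0403) and at day 100 (2.52, adjusted p = 0.00960). With quantile scaling it passed at neither day.

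CLDN1, a claudin that tightens the barrier, was at -0.29, -2.28, -1.15 and 0.23 at day 10, at 2.81, 0.59, 0.55 and -1.34 at day 30, at 2.46, 2.18, 0.39 and 2.77 at day 50, and at 1.31, 2.56, 0.62 and 2.10 at day 100. Its values at day 50 and at day 100 lay above all those at day 10. The differences were 2.82 ± 0.78 and 2.52 ± 0.78 (adjusted p = 0.0924 and 0.0816). CLDN1 had no called slope on the epithelial marker level (explained below; slope 0.07 ± 0.23, adjusted p = 0.903), and it was as high in cow 2 at day 100, where epithelial markers were lowest, as in the other cows.

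CLDN3, one of the claudins of simple epithelium, varied least at day 50. It was at -3.44, -6.30, -3.64 and -2.87 at day 10, at -1.39, -2.88, -2.76 and -6.14 at day 30, at -0.01, -0.12, -0.13 and -0.80 at day 50, and at 2.31, -8.03, -3.34 and -0.78 at day 100. Every cow was higher at day 50 than at day 10, and at day 100 cow 1 was the highest and cow 2 the lowest of all arrays. The day 50 against day 10 difference was 3.80 ± 1.48 (adjusted p = 0.200), and 2.37 with the epithelial marker level in the fit. CLDN8, another barrier claudin, was at -1.41, -3.93, -1.41 and -2.27 at day 10 and at 2.61, 3.42, 0.54 and -0.07 at day 50, with a difference of 3.88 ± 1.97 (adjusted p = 0.320), and it was at -0.61, -8.14, 1.91 and 3.32 at day 100.

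CLDN7, which sits mainly on the lateral membrane and was named after its values were seen, had a difference of 1.93 ± 0.55 at day 50 against day 10 (adjusted p = 0.0959). Its levels were 1.92, 1.00, 1.85 and 1.28 at day 50 and 0.26, -1.59, -1.25 and 0.90 at day 10. CLDN4, a receptor of Clostridium perfringens enterotoxin, was at -1.67, -3.30, -0.05 and -2.88 at day 50 and at -1.29, -4.58, -3.54 and -1.51 at day 10, a difference of 0.76 ± 1.06 (adjusted p = 0.751), which was 0.36 with normexp. CLDN5, the claudin of endothelial cells, was at 3.08, 2.15, 3.41 and 2.09 at day 10 and at 0.16, 3.87, 2.38 and 3.89 at day 100, where only cow 1 was low. None of the 15 claudins passed the test in any pair of days in the values used here, and their differences from day 10 ran from -1.28 to 3.88. With normexp CLDN3 passed at day 50 against day 10 (2.83, adjusted p = 0.04996). CLDN7 passed there at day 100 against day 10 (1.62, adjusted p = 0.0484).

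Among the scaffolds, TJP1, known as ZO-1, varied little on the representing probe: its levels over the 16 arrays lay between -0.44 and 0.92, and the day 100 against day 10 difference was -0.25 ± 0.23 (adjusted p = 0.507). On a dim TJP1 probe, well above background on 4 of 16 arrays, the difference was -1.45 ± 0.45 (adjusted p = 0.0790). That probe passed the test with the epithelial level, the smooth muscle level or array weights in the fit, at -1.57, -1.71 and -1.77 (adjusted p = 0.0351, 0.0225 and 0.0401). TJP3, or ZO-3, was more variable, at 1.28, 0.46, 2.07 and 0.36 at day 50 and 0.44, -2.30, -1.58 and 0.11 at day 10, with a difference of 1.88 ± 0.84 (adjusted p = 0.261). At day 100 it was at 3.09, -3.43, 1.24 and 0.97, with cow 2 again low.

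**Figure D3:**
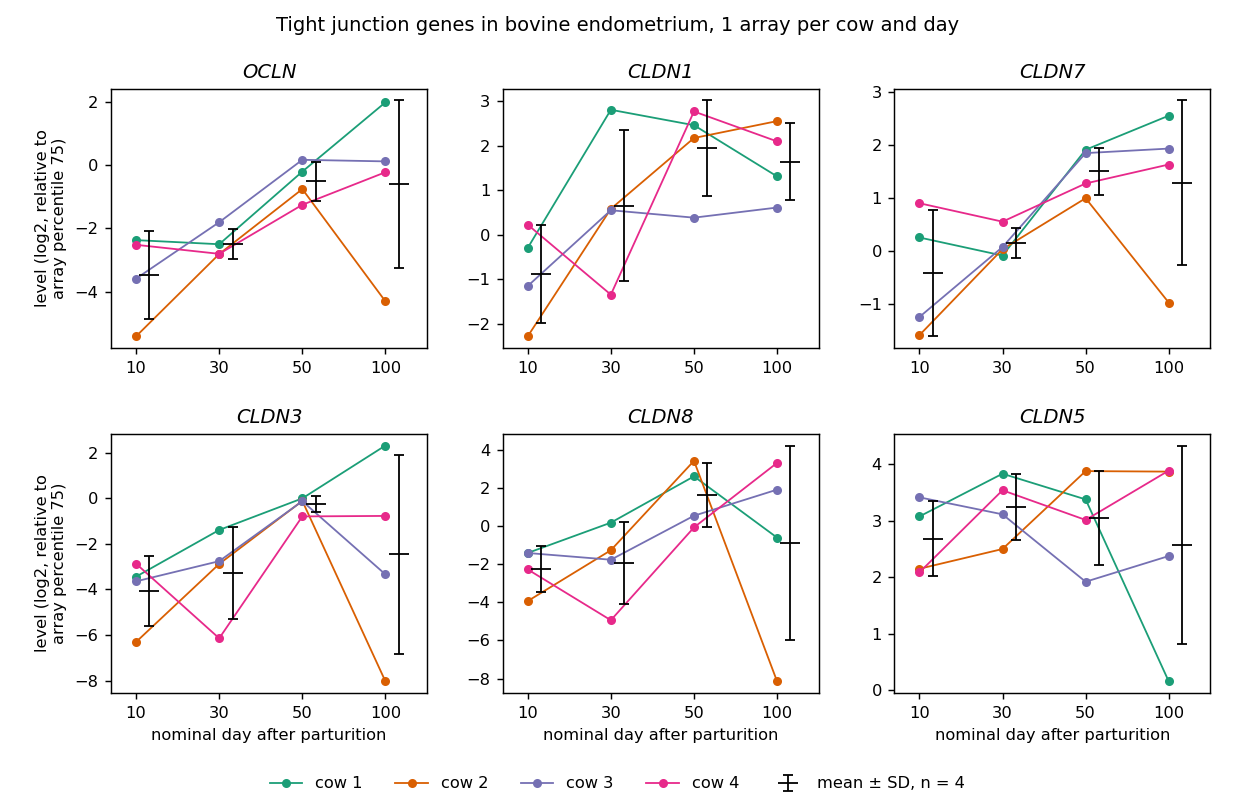
Level of 6 tight junction genes (log2, relative to percentile 75 of the array) by nominal day after parturition, with 1 line per cow and the mean ± SD of 4 cows beside each day. CLDN3, OCLN and CLDN8 fall far below the other cows in cow 2 at day 100, CLDN1 and CLDN5 do not, and CLDN5 is low in cow 1 at day 100.

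EPCAM, the epithelial cell adhesion molecule, gave 4.78, 0.57, 2.94 and 4.68 at day 10, 3.35, 4.08, 4.46 and 0.93 at day 30, 5.16, 5.26, 5.31 and 3.77 at day 50 and 6.14, -3.20, 5.93 and 5.16 at day 100. The low arrays were those of cow 2 at day 10 and day 100 and cow 4 at day 30, which also had the lowest epithelial marker level of their day. The day 50 against day 10 difference was 1.63 ± 1.58 (adjusted p = 0.623), and -0.06 with the epithelial marker level in the fit. F11R, which encodes JAM-A of epithelial tight junctions, was at 5.57, 2.32, 4.71 and 4.21 at day 100 and at 3.47, 1.33, 2.44 and 4.19 at day 10, a difference of 1.34 ± 0.57 (adjusted p = 0.171), but on another of its probes the difference was -0.07. JAM2 and JAM3, known mainly from endothelium and other non-epithelial cells, were low in cow 1 at day 100 (-0.13 and -0.32), with all other values of JAM2 between 1.71 and 2.67 and of JAM3 between 1.98 and 3.59. On its dimmest probe JAM3 fell at day 100 by 1.87 ± 0.35 (4 of 4 cows, adjusted p = 0.0186), where 1 of 4 arrays at day 100 and 3 of 4 at day 10 were well above background, and on the representing probe the difference was -0.84 ± 0.56 (adjusted p = 0.361). With normexp the difference on the dimmest probe was 0.19 (adjusted p = 0.713), so its direction depends on the background correction.

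Of the cadherins, CDH13 had called probes. T-cadherin, its product, lacks a cytoplasmic domain and is known from endothelium and smooth muscle, where it binds adiponectin. The sequence of 1 of its called probes is shown because the call does not rest on the representing probe. On build Btau_3.1 it starts and ends at chr18:9349779-9353491 on the plus strand, a span wider than its 60 bases, and it shares at most 10 bases in a row with a probe of another junction gene.
CDH13 called probe: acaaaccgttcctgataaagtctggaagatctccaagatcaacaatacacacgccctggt

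On this probe CDH13 was at 0.39, 0.05, 0.19 and 0.07 in cows 1 to 4 at day 10, at -0.92, -1.25, -1.31 and 0.45 at day 30, at -1.63, -1.15, -3.25 and -1.72 at day 50, and at -3.94, -0.41, -3.55 and -1.68 at day 100. The day 50 and day 100 values all lay below those of day 10. CDH13 fell at day 100 by 2.57 ± 0.61 on this probe and by 2.42 ± 0.59 on the other called probe (4 of 4 cows each, adjusted p = 0.0396 and 0.0428). The representing probe was at 2.52, 2.11, 2.02 and 1.77 at day 10, at 0.98, 0.83, 0.57 and 2.99 at day 30, at 0.45, 1.16, -1.26 and 0.15 at day 50, and at -2.34, 2.22, -0.38 and 0.34 at day 100. There cow 2 at day 100 overlapped day 10, and the difference was -2.15 ± 0.76 (adjusted p = 0.110).

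The 4 calls at day 100, those of CDH13, GJA1 and JAM3, were all lost without cow 1, cow 3, cow 4 or the day 10 array of cow 1 (0 junction probes called each time). Calls over all probes fell as well, from 1527 to 73, 83, 193 and 258 in that order. The differences then ran from -2.84 to -1.98 on the CDH13 probe shown, from -2.54 to -1.83 on the other CDH13 probe, from -2.64 to -1.999 for GJA1 and from -1.98 to -1.55 for JAM3. Without the day 100 array of cow 1 the calls of CDH13 and GJA1 were lost too, at -2.02, -1.80 and -1.91 (adjusted p = 0.0702, 0.0681 and 0.0841). Without cow 2 there were 7 calls, which included CDH13 and JAM3 but not GJA1 (-2.65, adjusted p = 0.0701). GJA1 also missed the threshold with the smooth muscle level in the fit and with no filter on dim probes (adjusted p = 0.0516 and 0.0560). The second CDH13 probe missed it with normexp, at -1.36, with quantile scaling and with no filter (adjusted p = 0.0533, 0.0656 and 0.0530). Beside them, the stromal fibroblast marker level was -1.64 to 0.40 at day 100 and 0.29 to 0.52 at day 10, and the endothelial level, with 9 of 10 genes measured, was -1.36 to 0.37 at day 100 and -0.79 to 0.55 at day 10. Cow 1 was lowest at day 100 in both, and the part of these cell types in the calls was not tested.

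CDH1, or E-cadherin, the classical cadherin of epithelium, was at 1.41, -2.25, -0.49 and 1.18 at day 10, at 0.17, -0.09, 0.96 and -0.70 at day 30, at 1.47, 1.19, 1.84 and 1.76 at day 50, and at 3.30, -2.87, 2.05 and 1.50 at day 100. Its day 50 values lay close together, and the difference from day 10 was 1.60 ± 0.86 (adjusted p = 0.349). CDH2, or N-cadherin, known from mesenchymal cells and nerve, was at 3.13, -0.82, 0.79 and 2.34 at day 10 and at -2.92, -1.65, 0.03 and -0.06 at day 100. All 4 cows were lower at day 100, by 2.51 ± 0.86 on average (adjusted p = 0.101). CDH5, the cadherin of endothelial junctions, stayed between -4.77 and -2.30, and CDH11, a cadherin of stromal cells, between 0.29 and 2.78 on the 13 arrays where its spot was kept. The spot of CDH11 was nonuniform in cow 1 at day 30 and in cow 4 on days 50 and 100, so its day 100 values, of 0.29, 0.50 and 1.68, rest on 3 cows. They overlapped those of day 10, and the difference did not pass the test (adjusted p = 0.338).

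CDH16 and CDH17, cadherins with 7 extracellular repeats known from kidney and intestine, had a wide spread that was greatest at day 100. CDH16 was at 1.44, -8.03, -2.96 and -3.75 at day 100 and at -3.90, -8.69, -4.76 and -3.54 at day 10, a difference of 1.90 ± 1.44 (adjusted p = 0.423). CDH17 was at 1.07, -7.18, -3.45 and -4.18 at day 100 and at -0.44, -5.74, -4.57 and -1.03 at day 10, a difference of -0.49 ± 1.42 (adjusted p = 0.852), which was 0.51 with normexp. CDH26, named after its values were seen, reached 1.37 in cow 1 and 0.29 in cow 4 on day 10, with all other arrays between -3.14 and -1.90. Its day 50 against day 10 difference was -1.71 ± 0.65 on the representing probe (adjusted p = 0.192). Another CDH26 probe was not well above background on any array of day 30 or day 50, and there CDH26 was at least 14.0-fold lower at day 50 than at day 10 (adjusted p = 0.0618). The other 10 tested cadherins, CDH3 set aside, passed no test between days, and their differences from day 10 ran from -1.35 to 2.69.

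Desmosomal genes had the highest group median at day 50 against day 10, a place that claudins took with the epithelial level in the fit. No desmosomal gene passed the test between days in the values used here. DSG2, the desmoglein of simple epithelium, was at 1.36, -3.53, -0.97 and 1.02 at day 10, at 0.37, 0.38, 0.77 and -3.92 at day 30, at 1.37, 1.61, 1.26 and 1.27 at day 50, and at 2.80, -5.43, 1.05 and 1.31 at day 100. Its low arrays were the same as those of EPCAM, and its day 50 against day 10 difference was 1.91 ± 1.47 (adjusted p = 0.522). PKP3, a plakophilin of epithelial desmosomes, was at -2.31, -2.19, -2.13 and -2.54 at day 50 and at -2.81, -6.85, -4.35 and -2.93 at day 10, a difference of 1.94 ± 1.28 (adjusted p = 0.449), which was 1.13 with normexp. DSP, desmoplakin, which ties the plaque to keratins, was at 1.55, 2.36, 1.96 and 1.70 at day 50 and at 1.15, 3.59, 1.38 and 0.73 at day 10, with cow 2 the highest at day 10 where DSG2 was lowest. PKP4, a plakophilin-related catenin, stayed between 1.50 and 3.06 on all arrays.

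DSC1, a desmocollin of stratified epithelium that was named after its values were seen, was not well above background in any cow at day 10 or day 30. Its levels were -4.24, -2.71, -4.72 and -8.29 at day 100 and -6.91, -8.73, -6.90 and -9.08 at day 10, a difference of 2.91 ± 0.76 (adjusted p = 0.0529), at least 4.04-fold higher at day 100. With normexp the DSC1 difference was 1.32 on the log2 scale (adjusted p = 0.0400), a smaller fold than that bound. DSC1 thus passed the test with normexp. It also passed with quantile scaling (3.31, adjusted p = 0.0332) and with the epithelial marker level in the fit (2.93, adjusted p = 0.0499). It did not pass with array weights or when any of the cows was left out. DSC2, the desmocollin of simple epithelium and also named after its values were seen, was at 3.04, -1.05, 2.01 and 1.45 at day 100 and at 0.88, -1.54, -0.57 and 0.83 at day 10, with a difference of 1.46 ± 0.84 (adjusted p = 0.291).

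The levels of many epithelial junction genes went with how much epithelial marker signal a biopsy held. Each probe was fitted with terms for day and cow and with the epithelial marker level of its array, and the slope is the log2 change of the probe per log2 unit of that level. Of the 121 junction probes 25 (20.7%) were called, 23 of 15 genes with a positive slope and 2 of 2 genes with a negative slope, where 3.66% of all tested probes were called. The positive slopes came from each group but the connexins: CDH1, CDH16 and CDH17, CLDN3, CLDN4, CLDN10, CLDN23 and CLDN25, DSC2, DSG2 and PKP3, OCLN and TJP3, and EPCAM and F11R. The steepest called slopes were EPCAM at 1.35 ± 0.20, DSG2 at 1.32 ± 0.13, CDH16 at 1.19 ± 0.21, PKP3 at 1.15 ± 0.12, CDH17 at 1.15 ± 0.22 and CLDN3 at 1.13 ± 0.26 (SE, 16 arrays, limma adjusted p = 0.00530, 0.000699, 0.0139, 0.000677, 0.0189 and 0.0387). CDH1 had a slope of 0.79 ± 0.06 (adjusted p = 0.000352) and DSC2 of 0.77 ± 0.06 (adjusted p = 0.000325), while OCLN and F11R had slopes of 0.67 ± 0.11 and 0.47 ± 0.08 (adjusted p = 0.0123 and 0.0130). All tested probes of CDH1, EPCAM, CLDN3, CLDN10 and TJP3 were called. Other probes of DSG2 (0.46), PKP3 (0.45 and 0.03), OCLN (0.54) and F11R (0.26) were not (adjusted p = 0.0724, 0.104, 0.831, 0.0965 and 0.143). CLDN4 was called on its other probe (1.05, adjusted p = 0.0194) and not on the representing probe (0.75, adjusted p = 0.0776).

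The negative slopes were those of CDH3 and of a probe of CDH7. CDH3, or P-cadherin, which was named after its values were seen, had a slope of -0.82 ± 0.16 (adjusted p = 0.0203), although its probe lies beside that of CDH1 on chromosome 18 (35035864 and 35139739). On its other probe the slope was -0.20 ± 0.19 (adjusted p = 0.603). On the representing probe CDH3 was highest in the arrays with the least epithelial signal: 0.45 in cow 2 and -0.53 in cow 3 at day 10, -0.26 in cow 4 at day 30 and -1.08 in cow 2 at day 100, with all other arrays between -6.05 and -2.64. The scaffold and plaque genes TJP1, PKP4 and DSP passed no test here: TJP1 had a slope of 0.03 ± 0.06 and PKP4 of 0.15 ± 0.07 (adjusted p = 0.856 and 0.293), and DSP had -0.26 ± 0.17 (adjusted p = 0.435). GJB5 had a slope of -0.05 ± 0.47 (adjusted p = 0.966) and GJB2 of 0.84 ± 0.21 (adjusted p = 0.0520). The slope of GJB1 was 1.35 ± 0.36 (adjusted p = 0.0669) and was not called.

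Cow 2, which had the widest range of epithelial marker level, decided much of this count. Without it 2 junction probes were called, CDH1 and DSC2 (adjusted p = 0.0448 each), against 14 to 16 without any other cow. The count of all tested probes fell too, from 1213 to 111 without cow 2 and to between 292 and 476 without any other cow. With normexp 12 were called, 10 with a positive and 2 with a negative slope, and among all probes the split was then 466 positive and 557 negative, where it was 937 and 276 in the values used here. The slopes of EPCAM, DSG2, CDH1, DSC2 and F11R stayed called with normexp. Those of CDH16, PKP3, CDH17, CLDN3 and OCLN did not (adjusted p = 0.247, 0.0510, 0.152, 0.224 and 0.0762). Nor did those of CLDN23 and CLDN25 (adjusted p = 0.989 and 0.878).

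**Figure D4:**
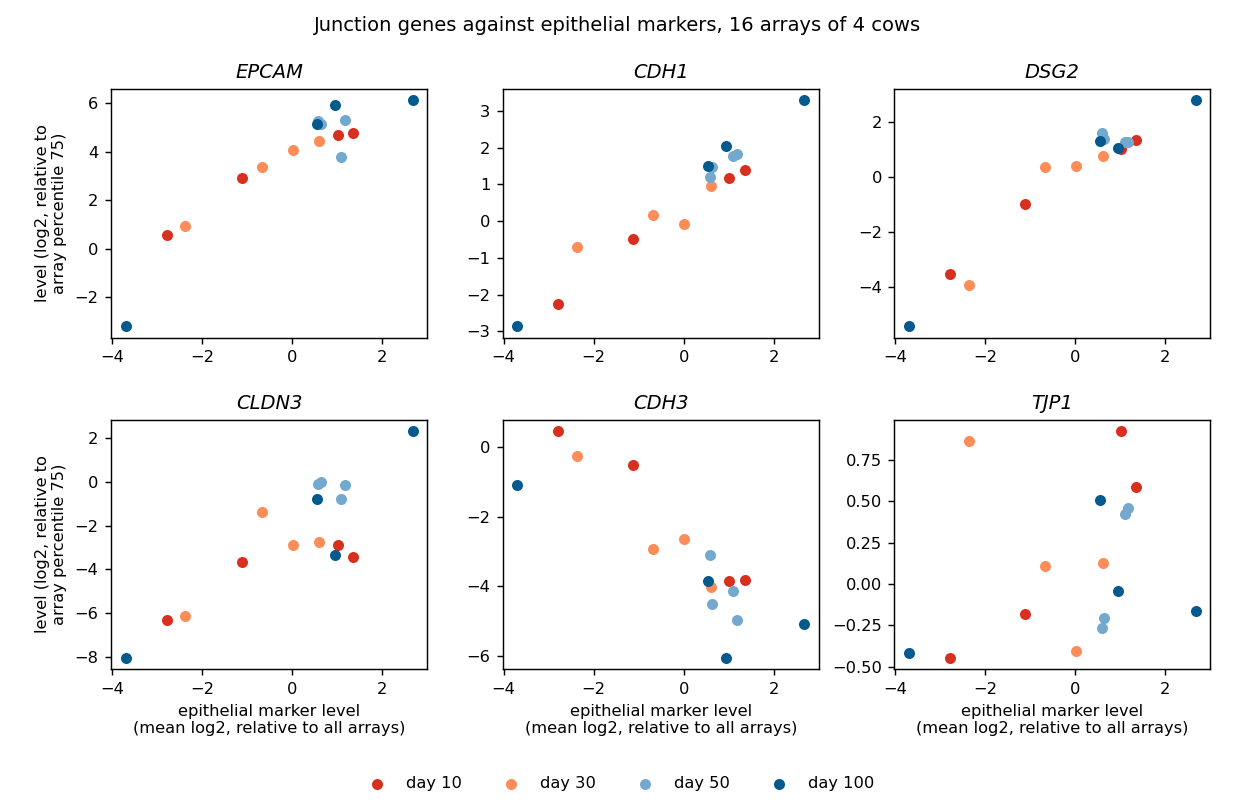
Level of EPCAM, CDH1, DSG2, CLDN3, CDH3 and TJP1 (log2, relative to percentile 75 of the array) against the epithelial marker level of the same array (mean relative log2 level of 13 genes), with 1 point per array coloured by nominal day. EPCAM, CDH1, DSG2 and CLDN3 climb with the marker level, CDH3 declines, and TJP1 stays flat between -0.44 and 0.92.

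Slopes on the smooth muscle marker level were called for 11 genes, of which 5 also had a called slope on the epithelial level (CDH1, CDH7, CDH17, CLDN4 and CLDN25). In all, 14 of 121 junction probes (11.6%) were called, 6 of 4 genes with a positive and 8 of 7 genes with a negative slope, against 3.39% of all tested probes. The positive slopes were those of GJC1 at 0.71 ± 0.10, CLDN5 at 0.66 ± 0.14, CDH15 at 0.94 ± 0.20 and CDH7 at 0.94 ± 0.21 (adjusted p = 0.00679, 0.0326, 0.0328 and 0.0372). On the other CDH15 probe the slope was -0.09 ± 0.08 (adjusted p = 0.590). GJC1 is connexin 45, a gap junction protein of muscle, and CDH15 is M-cadherin, known from skeletal muscle. Negative slopes were those of CLDN25, CDH17, GJB2, CLDN4, CDH4, PKP1 and a probe of CDH1, among them CDH17 at -1.26 ± 0.25, GJB2 at -0.97 ± 0.21 and CLDN4 at -0.91 ± 0.20 (adjusted p = 0.0250, 0.0375 and 0.0375). GJA1, the main gap junction gene of myometrium, had a slope of 0.18 ± 0.14 (adjusted p = 0.512). With both marker levels in 1 fit, 8 junction probes followed the epithelial level and 0 the smooth muscle level. Without cow 1, 0 junction probes followed the smooth muscle level, and without cows 2, 3 and 4 it was 5, 3 and 2. Among all tested probes 1124 followed it, and 37, 283, 269 and 354 without cows 1, 2, 3 and 4.

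**Figure D5:**
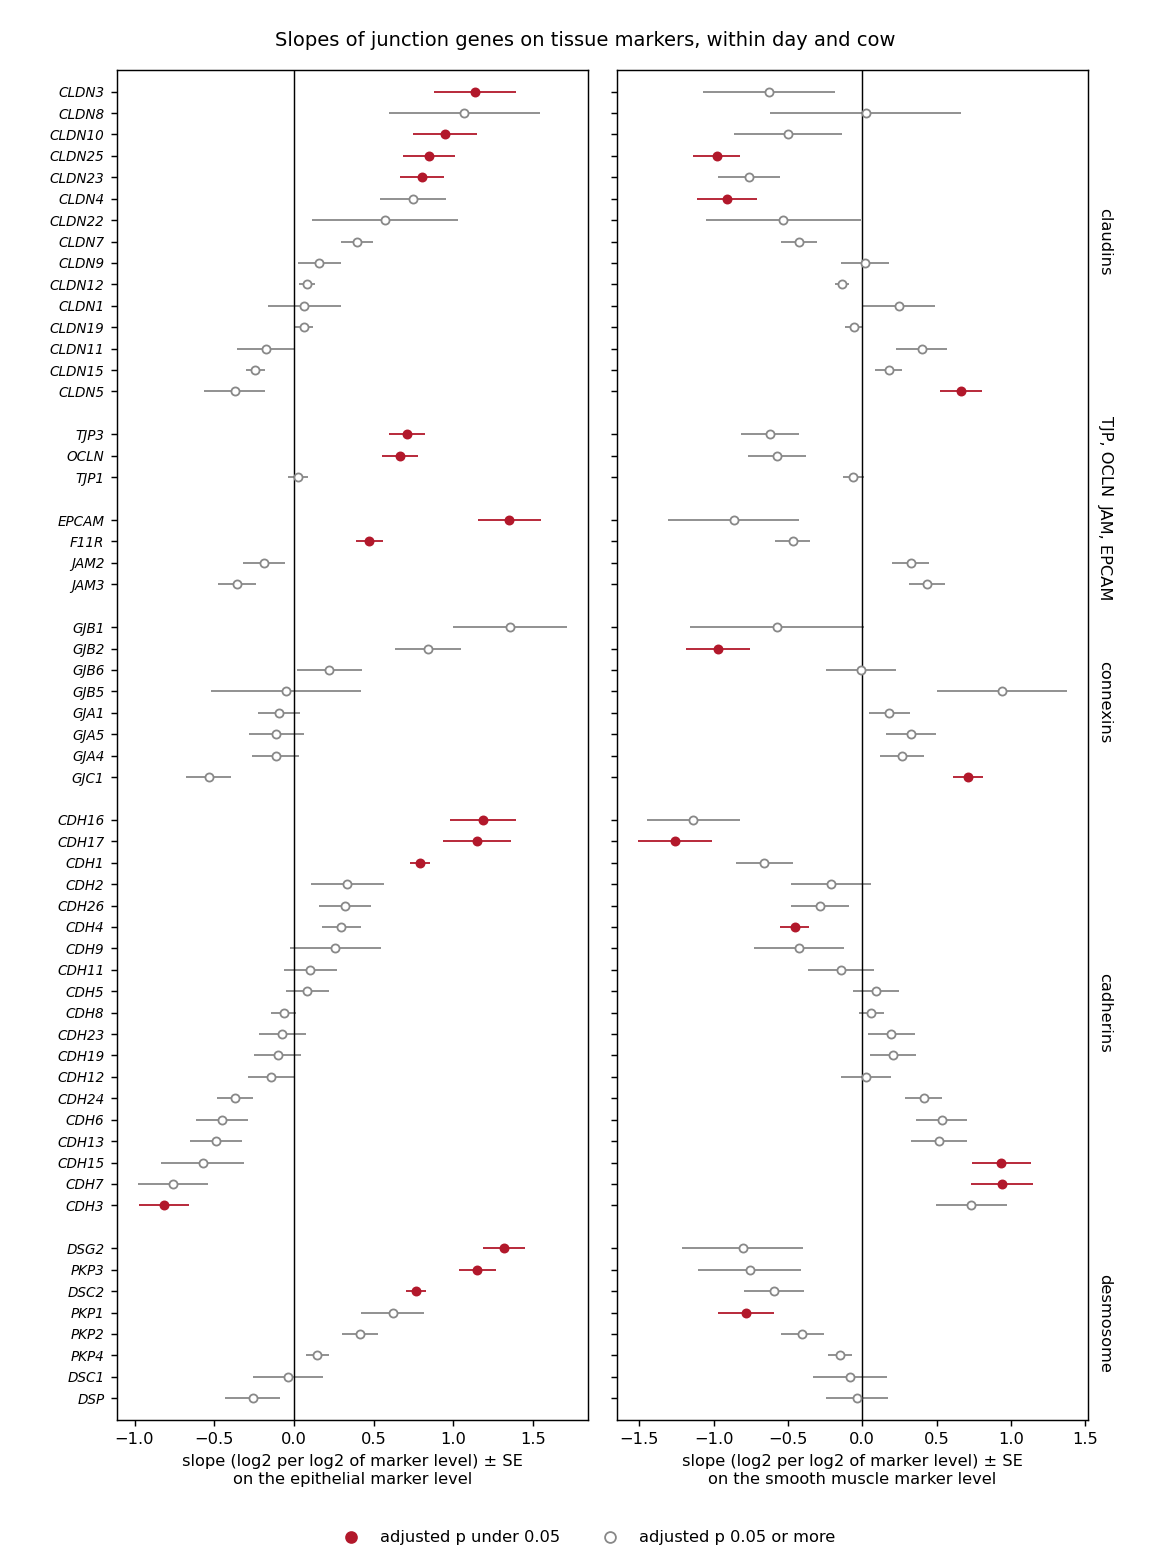
Slope of 57 of the 62 tested junction genes on the epithelial and on the smooth muscle marker level (log2 per log2 unit), with bars of ± 1 SE and filled red points where the adjusted p is under 0.05. EPCAM and DSG2 have the steepest called slopes on the epithelial level, CDH3 lies below zero there, and GJC1, CLDN5, CDH15 and CDH7 lie above zero on the smooth muscle level.

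Among the partners of these proteins no gene was called between days. In 5 further lists of catenins and desmosomal plaque, tight junction partners and polarity proteins, nectins and afadin, pannexins with other adhesion proteins, and transcription factors of the epithelial state, 48 of 64 genes were measured and limma called 0 of them in any pair of days or in the F test. At an unadjusted p under 0.05 there were 11 (22.9%, against 25.7% of all probes) at day 100 against day 10 and 7 (14.6%, against 18.6%) at day 50 against day 10. On the epithelial marker level, 11 of the 48 had a called positive and 1 a called negative slope, where 3.66% of all tested probes were called. Transcription factors made up 6 of them, OVOL2 at 1.42 ± 0.21, OVOL1 at 1.40 ± 0.14, KLF5 at 0.98 ± 0.10, EHF at 0.93 ± 0.10, ELF3 at 0.81 ± 0.08 and GRHL1 at 0.56 ± 0.08 (adjusted p from 0.000652 to 0.00503), which are known as regulators of epithelial genes. TWIST1, a mesenchymal factor that represses CDH1, had the negative slope of -0.47 ± 0.10 (adjusted p = 0.0304). The others reported here were MARVELD3, a relative of occludin, at 1.31 ± 0.11, NECTIN4 at 0.92 ± 0.10, the desmosomal membrane protein PERP at 0.85 ± 0.08 and the nectin-like PVR at 0.58 ± 0.12. These genes were named after their values were seen.

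The remaining 19 of the 81 genes are not in these counts because no probe of theirs reached the limit of 4 arrays. They were CDH10, CDH18, CDH20 and CDH22, CLDN2, CLDN6, CLDN16, CLDN18 and CLDN20, DSC3, DSG1, DSG3 and DSG4, and GJA3, GJA10, GJC3, GJD2, GJD3 and GJD4. Among them CLDN6 and CLDN16 came closest, with a probe above background on 3 of 16 arrays, while CLDN2, a claudin that forms cation pores, DSC3 and DSG4 were above it on 0 of 16.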

How the data were processed

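Total RNA of each biopsy was labelled with Cy3 and hybridised to a 1-colour bovine array, per the labels' protocols. The deposited spot intensity is the processed signal, which per the file headers had its background subtracted by the scanner software Agilent Feature Extraction, version 11.5.1.1 (the submitters' processing notes name 10.5.1.1), with probe positions on Btau_3.1, and was not scaled between arrays. The deposited value table was log2: set against the scanner values it matched the processed signal shifted by percentile 75 with the median of each probe set to zero, and it served as an alternative. Spot flags of 0 and 1 per the file headers gave background, saturation and nonuniform spots, and nonuniform spots were left out.

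Levels were log2 processed signal minus each array's percentile 75, for 43653 probes, with spots of a probe averaged. Probes not well above background on 4 or more of 16 arrays (10471) were not tested. Day and cow were the terms of the fit of differences (limma 3.58.1, R 4.3.3), with two-sided tests and Benjamini-Hochberg adjustment over 33182 probes at 0.05. Residual degrees of freedom were 9 and the median SE of a difference was 0.36 over all probes. Slopes added a marker level to that fit. Where a probe was not well above background on any array of a day, the fold is a lower bound for the values used here. It was taken against the higher, per array, of the lowest signal well above background and the probe's own. The fit was tested on simulated data. Each cow had its own slide, so cow and slide cannot be told apart, and all arrays were scanned on the same day.

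The cow block comes from the labels, which put the same 4 animals at each day. Deviations from the day means correlated with a median of 0.12 between arrays of a cow (24 pairs) and -0.04 between cows (72 pairs). Symbols were updated through RefSeq accessions, which renamed 2 probes from DSC2 to DSC3. Probe sequences are those of the array files. The members and gene lists were chosen with earlier results of these data known. Genes named with values were those whose representing probe was called between days, in each group the 2 with the highest mean and the 2 with the largest SD after removal of cow means, and a set of key genes such as CDH1 and OCLN. Others are marked as named after their values were seen, except where a count or list of called genes names them. Alternatives were normexp background correction (offset 50), quantile scaling, other filters, array weights, the deposited value table, no cow block, marker levels as covariates and leaving out each cow. Leaving out single arrays was added after seeing the data. Some genes are counted but not reported by name here.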

Additional observations from a re-analysis of the deposited data

Results flagged for a closer look

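Among 105 sets of 4 arrays of a named gene and day, 8 held an array far from the other 3 by Dixon's criterion, which chance alone gives in about 1 set in 20. EPCAM stood at -3.20 in cow 2 at day 100, against 5.16 to 6.14 in the other cows, and at 3.77 in cow 4 at day 50, against 5.16 to 5.31. DSG2 stood at -3.92 in cow 4 at day 30, against 0.37 to 0.77, and CLDN3 at -0.80 in cow 4 at day 50, against -0.13 to -0.01. GJB5 stood at 0.29 in cow 1 at day 30, against -6.67 to -6.07. CDH13 stood at 2.99 in cow 4 at day 30, against 0.57 to 0.98. CDH5 stood at -3.58 in cow 3 at day 50, against -2.83 to -2.72, and PKP4 at 2.06 in cow 2 at day 50, against 1.75 to 1.79. The 3 sets of CDH11 with a spot left out were not checked.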

How the results depend on the processing

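With 4 cows, only large differences could pass: the median SE of a difference was 0.67 over the junction probes. Counts of called junction probes moved with the processing, as did those of all tested probes, and the cause was not tested. The F test (0 called) gave 2 with normexp, 18 with array weights, 4 with the epithelial level, 4 with the smooth muscle level and 0 to 5 without a cow or array. Its totals over all probes (342) were 556, 2635, 594, 671 and 17 to 1169 in the same order. Day 30 against day 10 (0) gave 3 with array weights and 3 with the epithelial level, and day 50 against day 30 (0) gave 2 with array weights. The totals over all probes were 759 and 354 (139 in the values used here), and 380 (0). Day 50 against day 10 (1) gave 5 with normexp, 2 with quantile scaling, 0 with probes above background on all 16 arrays, 24 with array weights, 5 with the epithelial and 11 with the smooth muscle level, and 0 to 8 without a cow or array (8 without the day 100 array of cow 1). All probes together (548) gave 615, 683, 428 of 23262, 4902, 719, 1204 and 21 to 970. Day 100 against day 10 (4) gave 14 with normexp (11 higher, 3 lower, where all 4 were lower), 2 with no filter, 12 with array weights, 18 with the epithelial and 10 with the smooth muscle level, and 0 to 13 without a cow or array (13 without the day 100 array of cow 2). There the totals of all probes (1527) were 1982, 1162 of 43653, 2791, 2600, 2383 and 73 to 3102. Over all probes, normexp called 1434 higher and 548 lower at day 100 against day 10 and quantile scaling 643 and 826, where the values used here gave 486 and 1041. At day 50 against day 10 normexp gave 302 and 313, where it was 198 and 350. Slopes on the epithelial level (25 called) gave 47 without the replicate block of cow, 12 with normexp, 14 with probes above background on all 16 arrays, 8 with both marker levels and 2 to 27 without a cow or array. For all probes (1213) these slope counts were 4996, 1023, 857 of 23250, 278 and 111 to 1711. Slopes on the smooth muscle level (14) gave 41 without the replicate block, 9 with normexp, 8 with that filter, 0 with both levels and 0 to 13 without a cow or array. The counts for all probes (1124) were 4981, 776, 1000 of 23253, 33 and 37 to 923. Without the replicate block the counts of day differences stayed at 1 and 4, and GJB5 at day 50 had an adjusted p of 0.0383. The sign turned for CDH5 at day 100 against day 10 (-0.42 as reported, 0.082 with normexp, -0.89 to 0.13 without a cow) and for CLDN5 at day 100 against day 30 (-0.67, 0.60 with the smooth muscle level, -1.35 to 0.33 without a cow). It turned too for DSP at day 100 against day 10 (0.47, and -0.27, -0.20, -0.32 and -0.050 on other probes), EPCAM at day 50 against day 10 (1.63, -0.064 with the epithelial level) and F11R at day 100 against day 10 (1.34, -0.075 on another probe). Of the values for single genes, 308 kept their direction and their side of the threshold under these alternatives, 15 passed it only there, 6 no longer passed it and 10 changed sign.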
